A study of Rattus norvegicus with 3 samples.

Results

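Gene expression in cells given the nanotube called CNT-2 was set directly against that in cells given the nanotube called CNT-1. The cells were NR8383, an established line of rat alveolar macrophages, the phagocytes of the airspaces. The CNT-1 group and the CNT-2 group had each been kept for 24 h with 0.1 mg/mL of an impurity-free single-wall carbon nanotube in a working solution with 1 mg/mL bovine serum albumin. A further group, the control, is called untreated in one label and a solvent control with albumin in another, and it enters below only as context. The sources used here do not say what sets CNT-1 apart from CNT-2. The comparison took 2 of the 3 columns of the deposited table: for each probe the CNT-1 value was subtracted from the CNT-2 value, and the differences of the probes of 1 gene symbol were averaged. Of 41103 probes, 20932 had 1 gene symbol, which gave 15924 genes, and all of them are members of the comparison.

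Alveolar macrophages clear inhaled particles by phagocytosis. A particle load can reach the cell through surface receptors, through the lysosome and through membranes, whose sterol content is held by a feedback loop that reads cholesterol in the endoplasmic reticulum. Activated macrophages switch on chemokine and cytokine genes through the transcription factors NF-kappaB and AP-1, take up more glucose, and often leave the cell cycle, while unfolded proteins or lack of amino acids act through the factor ATF4. The gene lists below follow these roles, but lists and members were chosen with earlier results of these data known.

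There was 1 column on each side, so no difference has a replicate check, no test was made, and "higher" and "lower" describe the CNT-2 column against the CNT-1 column of this table only. Each sample is labelled replicate 4, and the n of 4 in the design text has no unit, so that a column may be 1 array or an average of several. The values are presumed to be log2 values that were centred per probe, on a baseline that the sources used here do not give. The control column lay close to this baseline, with a median of 0.014 and an SD over gene probes of 0.149. Whether control cells served as the baseline is not known, and the narrow spread of the control column may come from the centring. Values centred per probe hold no expression level. For the same reason the cell type in the labels could not be checked by the level of its markers, and fewer cells of a kind and less RNA per cell cannot be told apart. All differences are CNT-2 minus CNT-1 in log2 units, where a difference of 1 is a 2-fold one. The SD given beside a mean was taken over a gene's probes and is technical spread within these columns. Most genes given without an SD had 1 probe, but some with 2 or more are given as a mean alone. Over the genes with 2 or more probes the median of this SD was 0.168.

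The CNT-2 column was the wider one: the SD over gene probes was 0.149 in the control column, 0.375 in the CNT-1 column and 0.887 in the CNT-2 column. The median difference over all genes was 0.15, and the middle of the distribution, from the 25th to the 75th percentile, ran from -0.18 to 0.49. The 1st percentile was at -1.68 and the 99th at 2.73, so that the tail toward CNT-2 was the longer one. At least 1 log2 unit higher in CNT-2 were 1484 genes, 9.32% of those measured, and at least 1 lower were 741, or 4.65%. At least 3 log2 units higher, an 8-fold difference, were 132 genes (0.829%), against 10 genes (0.0628%) at least 3 lower. The percentages of 9.32% and 4.65% are the background against which each count of list members below is to be read. The share of higher genes among those past 1 was 66.7% as deposited, and it moved with the scaling. Centring each column on its median gave 1185 higher and 942 lower (55.7% higher), on its 75th percentile 768 and 1563 (32.9%), on spike-in probes 915 and 1245 (42.4%), and quantile normalization 815 and 757 (51.8%). These scalings shifted the median of all genes by -0.12, -0.38, -0.27 and -0.15. The first 3 subtract 1 constant per column and leave the position of a gene relative to all others in place, so each list median below is to be set against the all-gene median of 0.15.

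Control probes of the array differed between the columns as well. The negative-control probe was at -0.111 in CNT-1 and 0.053 in CNT-2, a difference of 0.164. The 10 spike-in probes, which report RNA added in fixed amounts, had a mean difference of 0.271 ± 0.065 (SD over probes), with values from 0.184 to 0.392. A probe is called background-like here if its value in the control column was no more than 0.02 from that of the negative-control probe. Since the values are centred per probe, this closeness does not show that the signal of the probe was at background. Genes with background-like probes alone numbered 2209 (13.9%), with a median difference of 0.193, and they made up 10.4% of the higher and 3.91% of the lower genes. Their part in the counts was not tested beyond the setting without such probes, which gave 1368 higher and 723 lower genes among 13715.

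Most genes past the threshold lay near their baseline in the CNT-1 column and away from it in the CNT-2 column. Of the 1484 higher genes, 1024 (69.0%) were within 0.5 of 0 in CNT-1, 255 were already at 0.5 or above there, and 205 were at -0.5 or below. Opposite sides of 0, each by 0.5 or more, held the columns of 132 higher and 21 lower genes. Among the 741 lower genes, 541 (73.0%) were within 0.5 of 0 in CNT-1, and 105 (14.2%) were at least 0.5 from 0 on the same side in both columns. The sterol enzymes, described below, were the list with the highest median in the CNT-1 column, at 1.77.

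**Figure D1:**
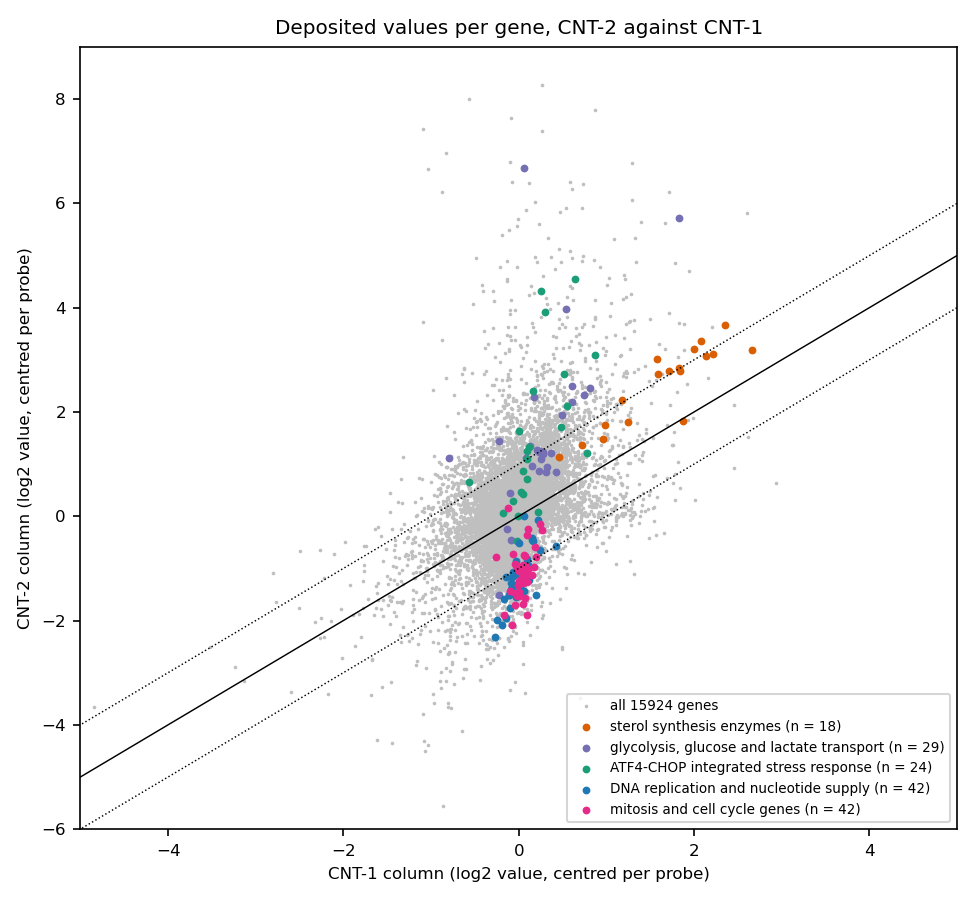
Deposited value of each gene in the CNT-1 column (x axis, log2, centred per probe) against the CNT-2 column (y axis, same scale), with the solid line at equality and dotted lines at 1 log2 unit on either side. Sterol synthesis enzymes (orange, 18 genes) lie to the right, with a median of 1.77 in CNT-1 and 2.78 in CNT-2, whereas replication (blue) and mitosis genes (pink) lie near 0 in CNT-1 and below the lower line in CNT-2 in most cases.

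The genes with the largest positive differences came from many tissues. Slc6a3, the dopamine transporter of neurons, was at -0.56 in CNT-1 and 8.01 in CNT-2, a difference of 8.57. Xirp1, an actin-binding protein of muscle, stood at -1.09 in CNT-1 and 7.42 in CNT-2, a difference of 8.51. Nppb, which encodes brain natriuretic peptide, stood at 0.26 in CNT-1 and 8.27 in CNT-2, a difference of 8.01 on a background-like probe. These 3 genes are best known from neurons, muscle and heart. Others of the 15 highest belong to the repertoire of activated macrophages or of tissue remodelling. Mmp10, a matrix metalloproteinase, was at -0.83 in CNT-1 and 6.96 in CNT-2, a difference of 7.79. Acod1, the enzyme that makes itaconate, was at -0.09 and 7.64, a difference of 7.74. Serpinb2, which inhibits plasminogen activators, stood at 0.87 and 7.79, a difference of 6.92, and Inhba, the subunit of activin A, was at -0.10 and 6.79, a difference of 6.90.

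Genes of skin and other epithelia were also among the 15 highest. The epidermal proteins Sbsn and Dmkn differed by 7.70 and 7.09, and the keratin Krt76 by 6.49. The rest were Sytl3, a Rab27 effector, at 7.11, Slc2a6, a hexose transporter, at 6.63, Ambp, the precursor of alpha-1-microglobulin and bikunin, at 6.27, the calcium-binding protein Cabp2 at 5.84 and the receptor phosphatase Ptprf at 5.83. Each of the 15 genes had 1 probe, and the probes of Sytl3 and Slc2a6 were background-like. In all 15 the CNT-1 value lay between -1.09 and 0.87, below every CNT-2 value of the set.

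The lowest genes included receptors and chemokines. Sucnr1, the receptor for succinate, was at -0.87 in CNT-1 and -5.56 in CNT-2, a difference of -4.69. Ccl12, a chemokine for monocytes, was at 0.70 in CNT-1 and -3.49 in CNT-2, a difference of -4.18. Clec10a, a lectin for galactose-type sugars, was at 0.07 and -3.39, a difference of -3.47, and Cxcr2, the receptor for neutrophil chemokines, at 0.05 and -2.84, a difference of -2.89. Cxcl10, an interferon-inducible chemokine, was at -0.80 and -3.66, a difference of -2.86. Ccl12 lay above its baseline in CNT-1 and far below it in CNT-2, whereas Cxcl10 and Sucnr1 were low in both columns and lower in CNT-2.

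The other genes of the 15 lowest were Pde9a, a phosphodiesterase for cGMP, at -3.48, Clec2l at -3.44 ± 0.22 (probe SD, 2 probes), Gys2, a glycogen synthase, at -3.35 ± 0.35 (2 probes), Gtse1, a cell cycle protein, at -3.24, Spata46 at -3.22, the metalloproteinase Mmp28 at -3.13, the developmental factors Dbx1 and Myod1 at -3.03 and -2.998, Abcd2, a peroxisomal transporter, at -2.90, and Selenop, a selenium transport protein, at -2.90.

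**Figure D2:**
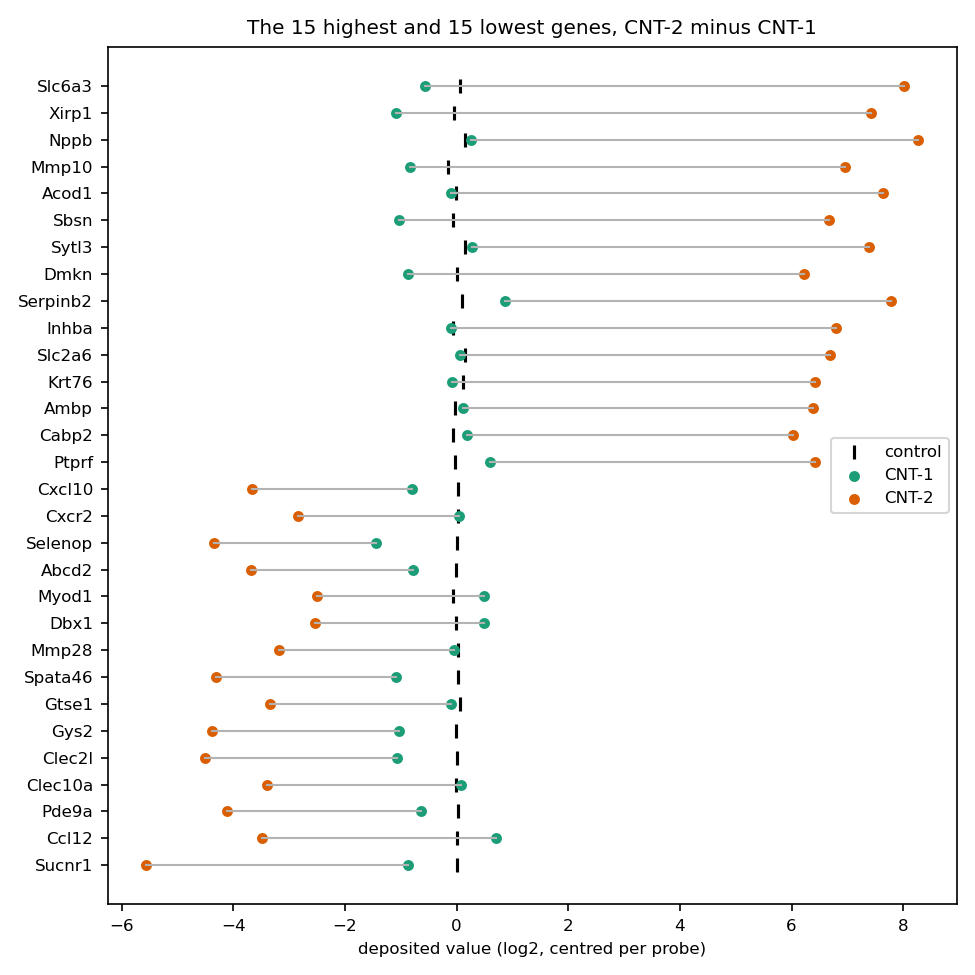
Deposited values (x axis, log2, centred per probe) of the 15 genes with the largest positive and the 15 with the largest negative difference: control (black mark), CNT-1 (green) and CNT-2 (orange), joined by a line. CNT-1 lies within 1.5 of 0 in each of the 30 genes, and CNT-2 lies at 6.03 or above in the upper set.

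Genes measured by several probes gave a check within the table. In 3910 genes with 2 or more probes, the first and second probe of a gene correlated across genes with r = 0.68 (Pearson) and rho = 0.64 (Spearman), a description in which genes are not replicates. The first 2 probes differed by under 0.5 in 2948 of these genes (75.4%). Of 388 such genes whose mean was past 1, 360 had a probe SD below the size of the mean. Every probe was at least 1 higher in 155 of the 253 genes with a mean at least 1 higher. On the lower side this held for 87 of 135, so the rest had a probe short of the threshold.

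Among the highest of these were Eps8, which caps actin filaments, at 5.48 ± 0.62 (probe SD, 3 probes), Crtap, a collagen-modifying protein, at 4.62 ± 0.89 (2 probes), and Adora2a, the adenosine A2a receptor, at 4.61 ± 1.62 (2 probes). The secreted protein C1qtnf1 was at 4.34 ± 0.10 (2 probes), MGC116197 at 4.33 ± 0.27 (7 probes), the lipopolysaccharide receptor Cd14 at 4.26 ± 0.14 (2 probes), Tmod1, another actin-capping protein, at 4.23 ± 1.74 (2 probes), Gas6, a ligand of the Axl and Mertk receptors, at 4.11 ± 0.27 (2 probes), and Slc35e4 at 4.05 ± 0.48 (2 probes). On the lower side stood the glutamate transporter Slc1a3 at -2.77 ± 0.05 (2 probes), Plxdc2 at -2.41 ± 0.33 (2 probes), Ghr, the growth hormone receptor, at -2.38 ± 0.12 (3 probes), Id3, an inhibitor of helix-loop-helix factors, at -2.33 ± 0.03 (3 probes), Pclaf, which binds the replication clamp, at -2.23 ± 0.03 (2 probes), and Tpst1, a tyrosine sulfotransferase, at -2.01 ± 0.27 (2 probes), besides Clec2l and Gys2 given above and Fcgr1a and Mcm10 given below.

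In 7 genes 1 probe was at least 1 higher and another at least 1 lower, and their means say little. Pdk4, a kinase that restrains pyruvate use, had probes at -2.56 and 1.16, and Acat2, an early enzyme of the sterol pathway, at 1.15 and -1.23. The others were Slc22a15, Etl4, Itpr3, Coch and Cacna1d.

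**Figure D3:**
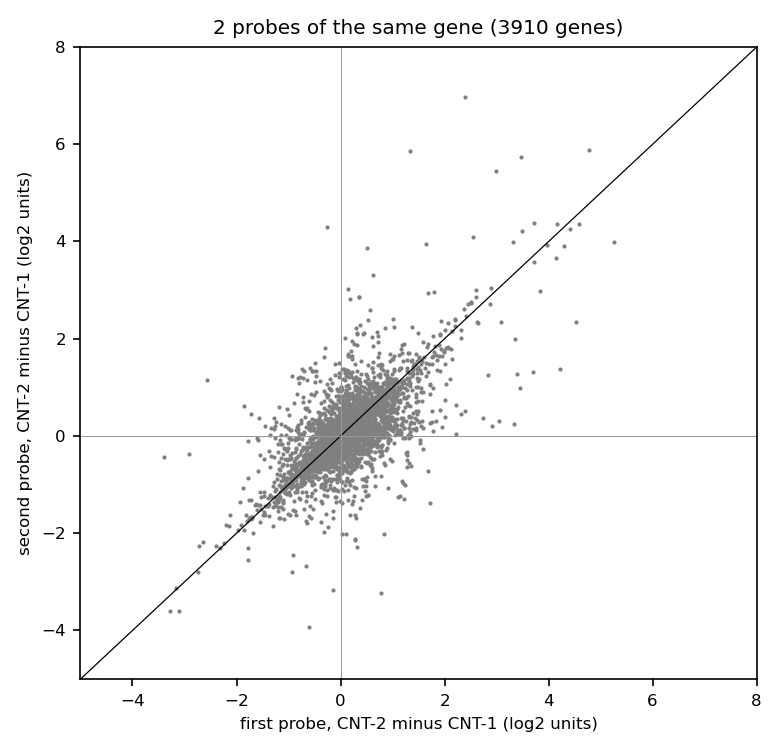
Difference of the first probe (x axis) against that of the second probe (y axis) of each of 3910 genes with 2 or more probes, CNT-2 minus CNT-1 in log2 units, with the line of equality. Most points follow the line (r = 0.68 across genes), and 7 genes hold probes past 1 in opposite directions.

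Gene lists by function were then read across the same difference. The 49 lists held 1210 different measured genes, 40 of them on more than 1 list. The list medians ran from -1.29 for DNA replication to 1.09 for the ATF4-CHOP stress response. Above the all-gene median lay 30 lists and below it 18. Of the listed genes, 202 were at least 1 higher and 126 at least 1 lower.

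**Figure D4:**
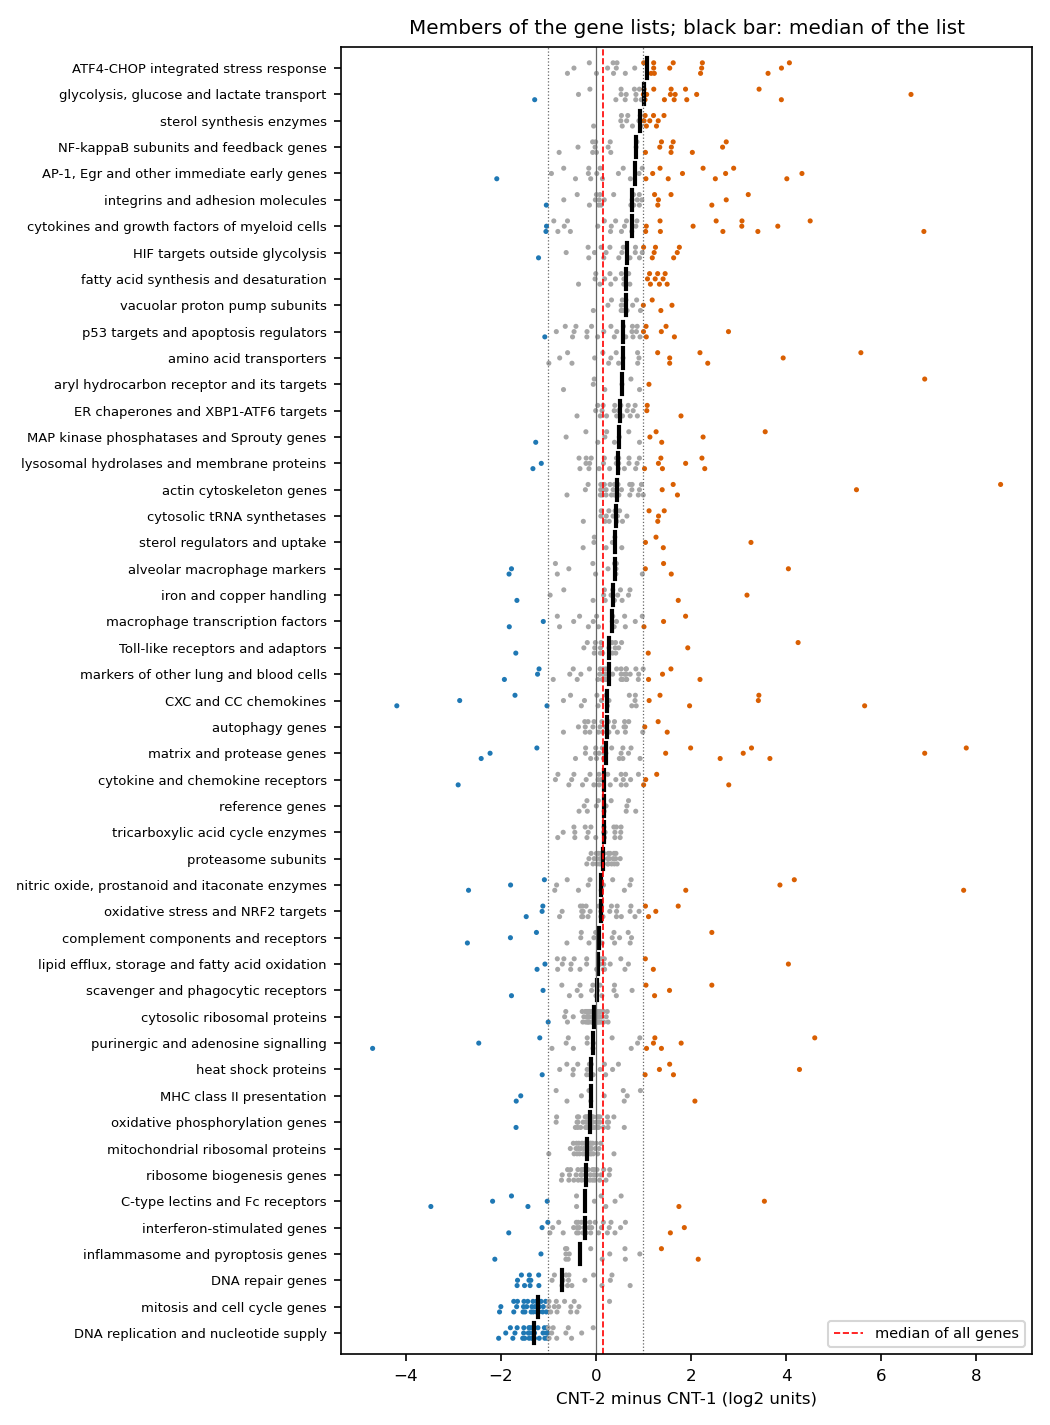
Every measured member of the 49 gene lists (points; orange at least 1 higher, blue at least 1 lower, grey between), with the list median as a black bar and the all-gene median of 0.15 as a red dashed line; the x axis is CNT-2 minus CNT-1 in log2 units. The 3 lowest lists are replication, mitosis and DNA repair, and the highest is the ATF4-CHOP list; quantile normalization turned the sterol synthesis list to the other side of the all-gene median.

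Chemokine genes lay on both sides. Of 25 measured, 6 were at least 1 higher and 4 at least 1 lower, with a median of 0.25. The neutrophil chemokine Cxcl2 was at 0.61 in CNT-1 and 6.27 in CNT-2, a difference of 5.65. Cxcl1, which acts on the same receptor, was at 1.20 and 4.63, a difference of 3.43 on a background-like probe, and Cxcl3, another of the kind, differed by 1.97 ± 1.90 (probe SD, 2 probes). Ccl4, a chemokine made by activated macrophages, was at 1.01 and 4.43, a difference of 3.42. The monocyte chemokines Ccl7 and Ccl12 went the other way. Ccl7 was at 0.83 in CNT-1 and -0.87 in CNT-2, a difference of -1.70 ± 0.02 (probe SD, 2 probes), beside the value of -4.18 for Ccl12. Thus Cxcl1, Ccl4, Ccl7 and Ccl12 all lay above baseline in CNT-1, and in CNT-2 the first pair was higher still and the last pair below it.

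Cytokine and growth factor genes were more often higher. Of 31 measured, 13 were at least 1 higher and 2 at least 1 lower, with a median of 0.76. After Inhba came Gdf15, a stress-induced cytokine, at 1.71 in CNT-1 and 6.22 in CNT-2, a difference of 4.51. The EGF receptor ligands Ereg and Hbegf were at 0.58 and 4.41, and at -0.74 and 2.33, differences of 3.83 and 3.08. Il1rn, the decoy ligand that blocks the interleukin-1 receptor, was at -0.04 in CNT-1 and 3.37 in CNT-2, a difference of 3.41 ± 0.59 (probe SD, 2 probes). Oncostatin M, Osm, a cytokine of the interleukin-6 family, was at 1.78 and 4.86, a difference of 3.07, which quantile normalization turned to -0.32. The 2 lower genes were Il1b, which encodes interleukin-1 beta, at 0.70 and -0.34, a difference of -1.03 ± 0.15 (probe SD, 2 probes), and Il15, a cytokine for lymphocytes, at -1.05. The interleukin-1 blocker and the interleukin-1 beta gene thus lay on opposite sides.

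Receptors for these mediators showed fewer large differences. Of 28, 4 were at least 1 higher and 1, Cxcr2, was at least 1 lower, with a median of 0.18. Tnfrsf1b, a receptor for tumour necrosis factor, was at -0.19 in CNT-1 and 2.61 in CNT-2, a difference of 2.80. Il1rl1, the receptor for interleukin-33, differed by 1.28 ± 0.42 on background-like probes (probe SD, 2 probes), Tgfbr1, a receptor for transforming growth factor beta, by 1.05 ± 0.10 (probe SD, 3 probes), and the chemokine receptor Ccr1 by 1.01.

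NF-kappaB genes were among the high lists. The list of subunits and feedback genes, which also holds Vcam1 and Icam1, had 9 of 21 at least 1 higher, none at least 1 lower, and a median of 0.85. The members with the largest differences, named next, were not subunits. The adhesion molecule Vcam1 was at -0.10 in CNT-1 and 2.64 in CNT-2, a difference of 2.74 on a background-like probe. Birc3 and Birc2, ubiquitin ligases that restrain cell death, differed by 2.67 and 1.59. Nfkbib and Bcl3, of the inhibitor family of NF-kappaB, differed by 2.03 and 1.63, and Icam1, an adhesion molecule, by 1.58. With quantile normalization 3 of the 21 were at least 1 higher. An NF-kappaB element was found in a minority of the promoters of this list: the motif whose letters are in capitals below, with 1 free base in its middle, searched on both strands from 250 bases before to 50 after the annotated start, stood in 4 of 19 promoters (21.1%), against 0.449% of measured genes and 0.371% of all promoters of that length. Over all genes it did not go with direction, at 0.835% of genes at least 2-fold higher and 0.976% of genes at least 2-fold lower, against 0.379% within 2-fold. The stretches of Nfkbia, which encodes an inhibitor of NF-kappaB (difference 1.35), and Nfkb2, a subunit gene (difference 0.86), are shown because they were the highest list members with a match before the start. They are from RefSeq on build GRCr8, written 5′ to 3′ on the strand of the gene and cut at the start, with the element in capitals and position -1 for the base before the start.
Nfkbia, chr6:78597073-78597143, reverse strand, first match at position -31: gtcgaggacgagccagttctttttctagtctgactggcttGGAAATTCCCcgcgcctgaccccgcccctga
Nfkb2, chr1:255108314-255108373, forward strand, first match at position -20: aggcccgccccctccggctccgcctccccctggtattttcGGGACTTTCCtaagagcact

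Immediate early genes had 11 of 26 at least 1 higher, 1 at least 1 lower, and a median of 0.82. Fosl1, an AP-1 subunit, was at 0.61 in CNT-1 and 4.94 in CNT-2, a difference of 4.34. The small Maf factor Maff was at 1.32 and 5.34, a difference of 4.02, and Atf3, a stress-induced repressor of inflammatory genes, at 0.87 and 3.77, a difference of 2.90. The AP-1 subunits Jund and Junb differed by 2.73 ± 0.17 (probe SD, 2 probes) and 2.26, and the nuclear receptor Nr4a3 by 2.51 ± 0.62 (probe SD, 3 probes). Zfp36, which speeds the decay of cytokine mRNAs, was the member at least 1 lower, at -0.05 in CNT-1 and -2.13 in CNT-2, a difference of -2.08. Genes that switch off MAP kinases, which activate AP-1, had 5 of 15 at least 1 higher and 1 at least 1 lower, with a median of 0.50. Dusp1 was at -0.10 and 3.46, a difference of 3.56 on a background-like probe, and Dusp2 at -0.03 and 2.23, a difference of 2.26. Dusp14, Dusp16 and Dusp5 differed by 1.39, 1.27 and 1.14. Dusp6, which acts on ERK kinases, was at -0.92 and -2.18, a difference of -1.26.

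AP-1 elements, the letters TGANTCA on either strand, stood in 15.9% of the 107 promoters of genes at least 8-fold higher and in 10% of the 1197 of genes at least 2-fold higher. The share was 5.77% of 11333 promoters of genes within 2-fold, 4.88% of 615 promoters of genes at least 2-fold lower, 8.33% (5 of 60) of those at least 4-fold lower, and 7.33% of all promoters in the table. The 4 highest genes with a match before the start are shown, since they are also among the 15 highest of all genes. In each the capitals mark the AP-1 element.
Xirp1, chr8:128635173-128635259, reverse strand, first match at position -208: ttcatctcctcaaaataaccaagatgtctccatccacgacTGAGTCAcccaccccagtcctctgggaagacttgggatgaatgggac
Mmp10, chr8:12974606-12974692, forward strand, first match at position -61: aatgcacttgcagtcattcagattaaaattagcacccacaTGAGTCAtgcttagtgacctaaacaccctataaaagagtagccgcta
Dmkn, chr1:95141451-95141537, forward strand, first match at position -129: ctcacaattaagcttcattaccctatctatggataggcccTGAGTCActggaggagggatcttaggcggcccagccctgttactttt
Serpinb2, chr13:24055792-24055878, forward strand, first match at position -189: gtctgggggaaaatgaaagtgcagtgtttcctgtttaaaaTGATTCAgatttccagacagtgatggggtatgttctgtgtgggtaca

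Effector enzymes of inflammation split by pathway. Of 19 genes for nitric oxide, prostanoid and itaconate synthesis, 4 were at least 1 higher and 3 at least 1 lower, with a median of 0.11. Besides Acod1 the higher genes were Nos2, the inducible nitric oxide synthase, at 0.72 in CNT-1 and 4.89 in CNT-2, a difference of 4.17, Arg1, an arginase that competes for the same substrate, at 0.31 and 4.18, a difference of 3.87, and Gch1, which makes the cofactor of nitric oxide synthase, at 0.41 and 2.30, a difference of 1.89. The lower 3 make prostanoids or leukotrienes. Ptgs1, the constitutive cyclooxygenase, was at -1.62 and -4.29, a difference of -2.67, the lipoxygenase Alox5 at -0.51 and -2.30, a difference of -1.79, and its partner Alox5ap at -1.68 and -2.76, a difference of -1.08, which quantile normalization turned to 0.074.

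Inflammasome and pyroptosis genes had a median of -0.33, with 2 of 16 at least 1 higher and 2 at least 1 lower. Nlrp3, a sensor of particles and membrane damage, was at -0.87 in CNT-1 and -2.02 in CNT-2, a difference of -1.15, and Txnip, a protein that restrains glucose uptake and binds Nlrp3, at -0.26 and -2.38, a difference of -2.12. Ninj1, which ruptures the membrane of dying cells, was at 0.40 and 2.55, a difference of 2.15, and P2rx7, an ATP-gated channel, at -0.03 and 1.35, a difference of 1.38. The sensor and the rupture protein thus lay on opposite sides.

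The ATF4-CHOP integrated stress response had the highest median of all lists as deposited, 1.09, with 13 of 24 genes at least 1 higher, none at least 1 lower and 21 above 0. Its median was 0.11 in the CNT-1 column and 1.16 in the CNT-2 column. Nupr1, a stress-induced chromatin protein, was at 0.25 in CNT-1 and 4.32 in CNT-2, a difference of 4.07. Chac1, which degrades glutathione, was at 0.64 and 4.54, a difference of 3.90 ± 0.34 (probe SD, 2 probes), and Trib3, a pseudokinase induced by CHOP, at 0.30 and 3.92, a difference of 3.62. Cth, which makes cysteine, differed by 2.24, Ppp1r15a, which ends the block on translation, by 2.23, and Ddit3, which encodes CHOP itself, by 2.20. Centring on the 75th percentile left 8 of the 24 past the threshold, and quantile normalization 6. With quantile normalization the list median was 0.41, below the 0.46 of the immediate early list. Only 1 of 23 promoters (4.35%) held the ATF4-C/EBP element TGATGNAAT within the window, against 0.723% of measured genes.

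Genes that supply amino acids followed in the same direction. Of 21 amino acid transporters, 7 were at least 1 higher and none at least 1 lower, with a median of 0.57. Slc38a4, a sodium-coupled carrier of neutral amino acids, was at -0.19 in CNT-1 and 5.39 in CNT-2, a difference of 5.57, and the glycine transporter Slc6a9 at -0.39 and 3.55, a difference of 3.94. Slc1a4 and Slc38a2, carriers of small neutral amino acids, differed by 2.36 and 2.19 ± 0.18 (probe SD, 2 probes). Slc7a6 and Slc7a1, carriers of cationic amino acids, differed by 1.55 and 1.55 ± 0.46 (probe SD, 2 probes). The cytosolic tRNA synthetases, which charge tRNAs, had 4 of 18 at least 1 higher, none at least 1 lower and a median of 0.43. The 4 were Aars1 at 1.44, Cars1 at 1.32, Wars1 at 1.30 ± 0.10 (probe SD, 2 probes) and Sars1 at 1.12. Chaperones of the endoplasmic reticulum had 3 of 22 at least 1 higher and a median of 0.50: Dnajb9, a co-chaperone, at 1.79 ± 0.15 (probe SD, 2 probes), P4hb, a disulfide isomerase, at 1.08, and Herpud1, of the degradation machinery, at 1.07 ± 0.17 (probe SD, 2 probes).

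Targets of p53 and apoptosis regulators had 7 of 29 at least 1 higher and 1 at least 1 lower, with a median of 0.58. The growth arrest genes Gadd45a, Gadd45b and Gadd45g differed by 2.79, 1.65 and 1.48, the repair factor Ddb2 by 1.38, which quantile normalization turned to -0.17, and the survival factor Mcl1 by 1.06 ± 0.30 (probe SD, 2 probes). The death factor Bmf was at -1.07. Heat shock proteins had 5 of 23 at least 1 higher, 1 at least 1 lower and a median of -0.09, whereas their mean lay above the mean of all genes by 0.10. The small heat shock protein Hspb1 was at 0.14 in CNT-1 and 4.42 in CNT-2, a difference of 4.28. Hspa1a differed by 1.63, Hspa1b by 1.55 ± 1.91 on background-like probes (probe SD, 2 probes), Hspa1l by 1.34 and Hspa9, the mitochondrial member, by 1.04. Cryab, a small heat shock protein of lens and muscle, was at -1.13.

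Oxidative stress genes did not stand far from the rest. Of 33, 4 were at least 1 higher and 3 at least 1 lower, with a median of 0.11. The metallothioneins were split, with Mt3 at 1.73 and Mt2A and Mt1, which bind zinc and copper, at -1.46 and -1.13. Srxn1, which restores peroxiredoxins, differed by 1.26 and Sod2, the mitochondrial superoxide dismutase, by 1.11, while the glutathione transferase Gstm1 was at 1.76 in CNT-1 and 0.65 in CNT-2, a difference of -1.11. Iron and copper genes had 2 of 17 at least 1 higher and 1 at least 1 lower. Their median of 0.36 lay above the all-gene median as deposited and at -0.054 relative to it with quantile normalization. Lcn2, which binds bacterial iron carriers, differed by 3.18, the phagosomal metal pump Slc11a1 by 1.73 and Hfe, a regulator of iron uptake, by -1.66 ± 0.14 (probe SD, 2 probes). Of 9 aryl hydrocarbon receptor genes, Tiparp at 1.12 and Serpinb2 were at least 1 higher, and the median was 0.55.

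Glycolysis and glucose transport had 16 of 29 genes at least 1 higher and 1 at least 1 lower, with 26 above 0 and a median of 1.02. Slc2a6 and Slc16a3 led the list. Slc16a3, which exports lactate, was at 1.82 in CNT-1 and 5.73 in CNT-2, a difference of 3.90. The hexokinases, which trap glucose in the cell, were led by Hk1, at 0.54 and 3.98, a difference of 3.43 ± 1.55 on background-like probes (probe SD, 2 probes), and by Hk2, at 0.17 and 2.29, a difference of 2.12. The glucose transporters Slc2a3 and Slc2a1 were at -0.79 and 1.12, and at 0.60 and 2.49, differences of 1.91 and 1.89. The member at least 1 lower was Ldhb, the lactate dehydrogenase that favours lactate use, at -0.22 and -1.51, a difference of -1.28. Quantile normalization left 5 of the 29 past the threshold. The hypoxia response element GACGTG stood in 5 of 27 promoters of the list (18.5%), against 7.93% of measured genes, and its share was close to this in the ATF4-CHOP list (4 of 23, 17.4%) and in the replication list (6 of 36, 16.7%).

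Other targets of the hypoxia factors had 7 of 24 at least 1 higher, 1 at least 1 lower and a median of 0.65. Ak4, a mitochondrial adenylate kinase, differed by 1.76, Ankrd37 by 1.71, the mitophagy receptor Bnip3 by 1.64, the collagen hydroxylase P4ha2 by 1.26 and Higd1a, of the respiratory chain, by 1.23 ± 0.09 (probe SD, 2 probes). Epas1, which encodes the hypoxia factor HIF-2 alpha, was at 1.29 in CNT-1 and 0.09 in CNT-2, a difference of -1.20. Few genes of the mitochondrial lists were past 1. Tricarboxylic acid cycle enzymes had none of 21 past 1 and a median of 0.17. Oxidative phosphorylation genes had 45 of 52 below the all-gene median of 0.15, none at least 1 higher, 1 at least 1 lower and a median of -0.11. The 1 was Ndufc2, a subunit of complex I, at -1.68 ± 1.43 (probe SD, 2 probes).

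Sterol synthesis enzymes were high in both columns. Of 18 measured, 8 were at least 1 higher in CNT-2, none was at least 1 lower, and 17 lay above 0, with a median difference of 0.94. The list median was 1.77 in CNT-1, 2.78 in CNT-2 and 0.002 in the control column. Lss, which closes the sterol rings, was at 1.57 in CNT-1 and 3.01 in CNT-2, a difference of 1.43. Sc5d, a desaturase near the end of the pathway, was at 2.35 and 3.67, a difference of 1.31, and Idi1, an isomerase of its start, at 2.08 and 3.36, a difference of 1.28 ± 0.17 (probe SD, 2 probes). Msmo1 and Cyp51, which take methyl groups off the ring, differed by 1.21 and 1.06, and Mvd, of the mevalonate steps, by 1.14. The member below 0 was Acat2, whose probes disagreed as given above.

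This direction turned under 1 of the scalings, quantile normalization. Centring on the median, the 75th percentile and the spike-in probes left the list median above 0, at 0.82, 0.56 and 0.67. Quantile normalization gives both columns the same distribution, and so takes out the wider spread of the CNT-2 column. It put the sterol list at -1.55 relative to the all-gene median, in place of 0.79. It turned Lss to -1.08, Sc5d to -2.12, Idi1 to -1.86, Msmo1 to -1.80, Mvd to -1.29 and Cyp51 to -1.41. The enzymes held higher ranks in the CNT-1 column than in the CNT-2 column, although their values were higher in CNT-2. Centring on the median, the spike-in probes and the 75th percentile left 5, 3 and 1 of the 18 past the threshold.

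Promoters of the sterol enzymes often held a CCAAT box, the element of the factor NF-Y, which works with the sterol-sensing SREBP factors. The letters CCAAT stood on either strand in 11 of 15 promoters (73.3%), against 38% of measured genes. Mitosis genes, at the low end of the lists, had a like share, 24 of 32 (75%), and replication genes had 22 of 36 (61.1%). The sterol response element TCACNCCAC stood in none of the 15 and in 1.03% of measured genes, which says only that these letters are not in the windows. The 3 highest enzymes with a CCAAT box before the start are shown, with the box in capitals, here on the opposite strand and so read as ATTGG.
Lss, chr20:12118268-12118352, reverse strand, first match at position -82: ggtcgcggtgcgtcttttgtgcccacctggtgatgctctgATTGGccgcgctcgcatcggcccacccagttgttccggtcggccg
Sc5d, chr8:51538320-51538404, reverse strand, first match at position -87: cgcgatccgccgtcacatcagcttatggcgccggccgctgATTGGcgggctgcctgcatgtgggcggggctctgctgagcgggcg
Idi1, chr17:66547546-66547630, reverse strand, first match at position -66: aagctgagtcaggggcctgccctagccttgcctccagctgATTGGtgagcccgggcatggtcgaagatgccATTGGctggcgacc

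Regulators of sterol level had 4 of 11 at least 1 higher, none at least 1 lower and a median of 0.40, which quantile normalization put at -0.12 relative to all genes. Npc1l1, a sterol uptake protein of the gut, was at 0.02 in CNT-1 and 3.28 in CNT-2, a difference of 3.26. Insig1, which holds back the SREBP factors, was at 2.20 and 3.62, a difference of 1.42 ± 0.09 (probe SD, 4 probes), and its relative Insig2 at 0.33 and 1.60, a difference of 1.27 ± 0.39 (probe SD, 2 probes). The sterol carrier Stard4 was at 0.74 and 1.79, a difference of 1.05. With quantile normalization Insig1 was at -1.91 and Stard4 at -0.14.

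Fatty acid synthesis and desaturation had 9 of 22 at least 1 higher, none at least 1 lower, 20 above 0 and a median of 0.64. Fasn, the fatty acid synthase, was at 0.36 in CNT-1 and 1.77 in CNT-2, a difference of 1.42 ± 0.20 (probe SD, 2 probes). Me1, which supplies its reducing power, was at -0.09 and 1.41, a difference of 1.502 ± 0.29 (probe SD, 2 probes). The elongase Elovl7 differed by 1.46, Gpam, the first enzyme of glycerolipid synthesis, by 1.34, the desaturase Fads2 by 1.30 on a background-like probe, and Acss2, which activates acetate, by 1.25, or -1.49 with quantile normalization. These genes lay nearer to baseline in CNT-1, with a list median of 0.30, than the sterol enzymes.

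Lipid efflux, storage and oxidation genes had 3 of 26 at least 1 higher and 2 at least 1 lower, with a median of 0.05. Fabp4, a fatty acid carrier of mature macrophages, was at -0.10 in CNT-1 and 3.96 in CNT-2, a difference of 4.05. Abca1, which exports cholesterol, was at 0.14 and 1.35, a difference of 1.21, and Fabp5, another carrier, at 1.11 and 2.15, a difference of 1.04, which quantile normalization turned to -0.54. Angptl4, a lipase inhibitor, was at -2.18 and -3.42, a difference of -1.23, or 0.058 with quantile normalization, and Cpt2, of mitochondrial fatty acid import, differed by -1.07.

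As deposited, the lists of dividing cells had the lowest medians. DNA replication and nucleotide supply had 32 of 42 genes at least 1 lower, none at least 1 higher and none above 0, with a median of -1.29. Its median was -0.003 in CNT-1 and -1.27 in CNT-2, so that the CNT-1 column stayed at baseline. Mcm10, which helps to start the replication fork, was at -0.28 in CNT-1 and -2.32 in CNT-2, a difference of -2.04 ± 0.38 (probe SD, 2 probes). Clspn, a checkpoint adaptor at the fork, was at -0.19 and -2.08, a difference of -1.89 ± 0.06 (probe SD, 2 probes), and Mcm7, of the helicase, at -0.15 and -1.94, a difference of -1.79. Cdc6 and Orc1, which mark origins, differed by -1.74 and -1.70, and the polymerase subunit Pold1 by -1.65. The highest member stood at -0.05, below the median of all genes.

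Mitosis and cell cycle genes had 28 of 42 at least 1 lower, none at least 1 higher and 1 above 0, with a median of -1.21. The spindle gene Nusap1 was at -0.07 in CNT-1 and -2.10 in CNT-2, a difference of -2.02. The checkpoint kinase Ttk was at 0.10 and -1.90, a difference of -1.996 ± 0.20 (probe SD, 2 probes), and Top2a, which untangles chromosomes, at -0.17 and -1.89, a difference of -1.72 ± 0.13 (probe SD, 2 probes). The S-phase cyclin Ccne2 differed by -1.72 ± 0.06 (probe SD, 2 probes), the kinase Melk by -1.66 and the factor E2f8 by -1.65 ± 0.40 (probe SD, 2 probes). The member above 0 was Cdk6, a kinase of the G1 phase, at 0.29, named after its value was seen. Among genes with 2 or more probes, 13 of 17 mitosis genes and 8 of 14 replication genes were at least 1 lower. At a threshold of 1.5 each list had 9 such genes.

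DNA repair genes had 10 of 25 at least 1 lower, none at least 1 higher and a median of -0.71. The nuclease Exo1 differed by -1.65, the checkpoint kinase Chek1 by -1.64, Fancd2 and Fanca, of crosslink repair, by -1.56 and -1.40, Rad51ap1, of homologous recombination, by -1.497, and the damage kinase Atm by -1.40 ± 0.43 (probe SD, 2 probes). All 3 list medians stayed below that of all genes under each scaling, and with quantile normalization they were -1.03 for replication, -1.04 for mitosis and -0.65 for repair.

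Elements of known cell cycle regulators were searched in these promoters. The cell cycle homology region, the letters TTTGAA bound by the DREAM complex, stood in 17 of 32 promoters of mitosis genes (53.1%) and in 2 of 36 of replication genes (5.56%), against 14.8% of measured genes. The E2F element TTTGGCGC stood in 6 of 36 promoters of replication genes (16.7%) and 1 of 32 of mitosis genes (3.12%), against 0.776% of measured genes. Over all genes at least 2-fold lower the shares were 23.6% and 3.58%, against 14.3% and 0.662% of genes within 2-fold. The stretches of the lowest mitosis genes with a cell cycle homology region before the start follow first. They are Top2a, the proliferation marker Mki67 (difference -1.49), the mitotic cyclin Ccnb2 (-1.43) and Ect2, a factor of cell division (-1.31), with the element in capitals.
Top2a, chr10:84473094-84473155, reverse strand, first match at position -22: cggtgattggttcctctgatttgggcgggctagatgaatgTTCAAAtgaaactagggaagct
Mki67, chr1:199952665-199952750, reverse strand, first match at position -117: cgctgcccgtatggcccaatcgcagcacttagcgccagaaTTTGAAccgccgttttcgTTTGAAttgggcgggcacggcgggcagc
Ccnb2, chr8:79981827-79981908, reverse strand, first match at position -214: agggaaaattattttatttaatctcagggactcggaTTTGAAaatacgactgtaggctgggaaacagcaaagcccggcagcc
Ect2, chr2:111966736-111966821, reverse strand, first match at position -155: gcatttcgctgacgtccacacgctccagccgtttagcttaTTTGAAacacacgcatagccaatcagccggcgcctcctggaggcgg

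The lowest replication genes with an E2F element before the start were the polymerase subunit Pola1 (difference -1.42), the helicase subunit Mcm6 (-1.39) and Tyms, which makes thymidylate (-1.34). Their elements, in capitals, were read as GCGCCAAA where they lay on the opposite strand.
Pola1, chrX:62342480-62342567, reverse strand, first match at position -172: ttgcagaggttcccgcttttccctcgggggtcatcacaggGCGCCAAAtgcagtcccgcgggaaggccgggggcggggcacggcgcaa
Mcm6, chr13:42404444-42404531, reverse strand, first match at position -139: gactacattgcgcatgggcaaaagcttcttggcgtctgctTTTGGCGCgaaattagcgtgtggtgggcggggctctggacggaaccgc
Tyms, chr9:120776084-120776160, reverse strand, first match at position -37: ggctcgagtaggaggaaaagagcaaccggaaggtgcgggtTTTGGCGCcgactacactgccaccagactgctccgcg

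Shares of the sequence elements over the classes of genes were also set side by side. Promoters were found for 13145 of the 15924 genes (82.5%). The TATA box, TATAAA, stood in 20.6% of promoters of genes at least 8-fold higher, 14.6% of genes at least 2-fold higher, 10.9% of genes within 2-fold and 9.43% of genes at least 2-fold lower. The CCAAT box had the opposite order, with 31.8%, 34.7%, 37.9% and 45.2%. The hypoxia response element differed little, from 7.48% to 8.77%. The cAMP response element TGACGTCA stood in 5 of 107 promoters of genes at least 8-fold higher (4.67%), in 2.51% of the 2-fold higher, 2.56% of the genes within 2-fold and 2.11% of the 2-fold lower genes. The promoter of a gene at least 8-fold higher held a median of 9 CG pairs, against 12 in genes at least 2-fold higher, 17 in genes within 2-fold and 16 in genes at least 2-fold lower, at a median GC content between 57.0% and 58.7% in each of these classes. AP-1 and TATA letters both hold many A and T bases, and the part of base composition in the shares was not tested.

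**Figure D5:**
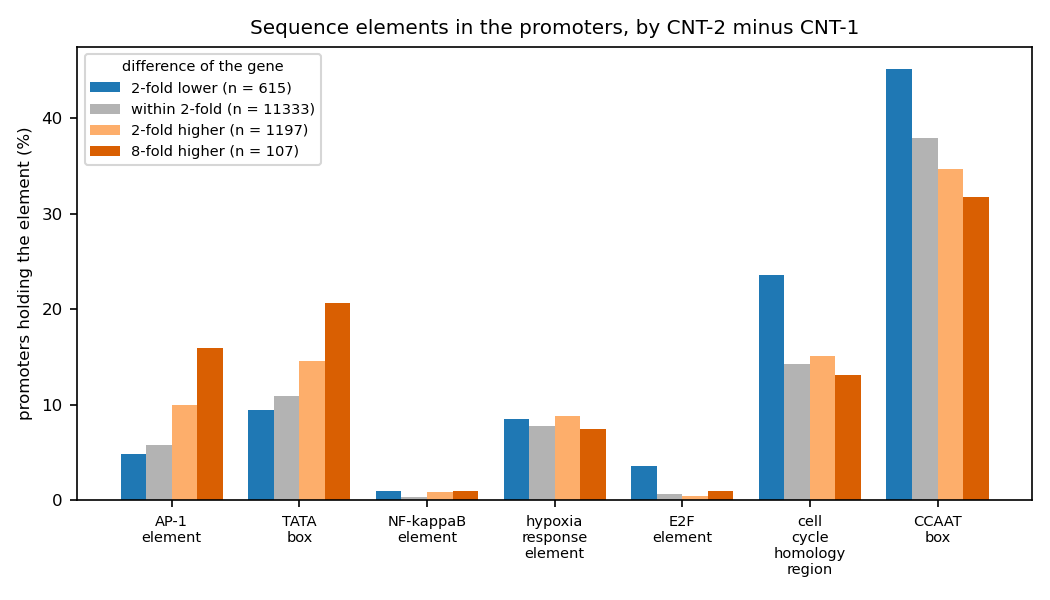
Share of promoters (y axis, percent) that hold each of 7 sequence elements, by the class of the gene in CNT-2 minus CNT-1 (blue at least 2-fold lower, grey within 2-fold, light orange at least 2-fold higher, dark orange at least 8-fold higher). AP-1 and TATA letters are most frequent in the 8-fold higher class, at 15.9% and 20.6%, and the cell cycle homology region in the lower class, at 23.6%.

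Lysosomal genes had 7 of 31 at least 1 higher and 2 at least 1 lower, with a median of 0.48. The cathepsins Ctsk and Ctsl, proteases of the lysosome, were at -0.18 in CNT-1 and 2.12 in CNT-2, and at -0.30 and 1.94, differences of 2.29 and 2.23 ± 0.04 (probe SD, 2 probes). The galactosidase Gla differed by 1.89, the protease Lgmn by 1.40 and the sialidase Neu1 by 1.37 ± 0.02 (probe SD, 2 probes). The protease Ctsc and the thioesterase Ppt1 were lower, at -1.32 and -1.15. Subunits of the vacuolar proton pump, which acidifies lysosomes, had 4 of 17 at least 1 higher, none at least 1 lower and 16 above 0. Their median of 0.64 was 0.48 above that of all genes as deposited and at -0.092 relative to it with quantile normalization. Atp6v0b differed by 1.60, Atp6v1f by 1.37, Atp6v0d2 by 1.19 (-0.36 with quantile normalization) and Atp6ap2 by 1.00 ± 0.02 (probe SD, 2 probes). Autophagy genes had 3 of 28 at least 1 higher, none at least 1 lower and a median of 0.24: the cargo receptors Sqstm1 at 1.503 ± 0.77 (probe SD, 5 probes) and Tax1bp1 at 1.03, and Wipi2, of the autophagosome membrane, at 1.31 ± 0.01 (probe SD, 2 probes). None of 32 proteasome subunits was past 1, with a median of 0.15.

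Surface receptors lay on both sides. Toll-like receptors and adaptors had 3 of 21 at least 1 higher and 1 at least 1 lower, with a median of 0.28. Cd14, which hands lipopolysaccharide to Tlr4, was at -0.88 in CNT-1 and 3.37 in CNT-2, a difference of 4.26 ± 0.14 (probe SD, 2 probes). Tlr4 itself was at -0.71 and -2.39, a difference of -1.68. Irak2, a kinase below the receptors, differed by 1.94 and Tlr2, a receptor for bacterial lipoproteins, by 1.10. The receptor Tlr4 and its co-receptor thus had opposite signs.

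C-type lectins and Fc receptors had 2 of 14 at least 1 higher, 5 at least 1 lower and a median of -0.22. Clec4e, which senses mycobacterial lipid and dead cells, was at 1.34 in CNT-1 and 4.88 in CNT-2, a difference of 3.55, and its partner Clec4d at 0.66 and 2.41, a difference of 1.75. Besides Clec10a the lower ones were Fcgr1a, the high-affinity antibody receptor, at -2.17 ± 0.54 (probe SD, 2 probes), the mannose receptor Mrc1 at -1.77 ± 0.05 (probe SD, 2 probes), Clec4a3 at -1.43 and Clec4a1 at -1.02. Scavenger and phagocytic receptors had 4 of 21 at least 1 higher and 2 at least 1 lower, with a median of 0.03. Itgam, an integrin that binds complement, was at 1.00 and 3.44, a difference of 2.44. Olr1, a receptor for oxidised lipoprotein, differed by 1.55, Itgav by 1.24 and Scara5 by 1.06, while Axl, a receptor for dying cells, was at -1.11 ± 0.03 (probe SD, 2 probes).

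Complement genes had 1 of 18 at least 1 higher, Itgam, and 3 at least 1 lower, with a median of 0.07. The lower genes were Cfp, which encodes properdin, at -2.70, Cfb, of the alternative pathway, at -1.79, and C1r, of the classical pathway, at -1.25. MHC class II presentation had 1 of 13 at least 1 higher and 2 at least 1 lower, with a median of -0.10, which lay 0.056 above that of all genes with quantile normalization. The costimulator Cd80 was at -1.67, the invariant chain Cd74 at -1.58 and RT1-DOb at 2.08 on a background-like probe. Interferon-stimulated genes had 2 of 35 at least 1 higher, 3 at least 1 lower and a median of -0.22. Rsad2 and Usp18, an antiviral enzyme and a brake on interferon signalling, differed by 1.86 ± 0.17 and 1.57 ± 0.10 (probe SD, 2 probes each), and the GTPases Ifi47, Gbp5 and Mx2 by -1.83, -1.13 and -1.01. Among the 6 members with 2 or more probes the median lay 0.15 above that of all genes.

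Purinergic genes had 6 of 21 at least 1 higher and 3 at least 1 lower. Their median of -0.05 lay below the all-gene median as deposited and 0.10 above it with quantile normalization. Adora2a was at 0.36 in CNT-1 and 4.97 in CNT-2, a difference of 4.61 ± 1.62 (probe SD, 2 probes). The nucleotide receptor P2ry2 differed by 1.80 and the adenosine receptor Adora3 by 1.24, whereas P2ry10, a receptor for lysophospholipids, was at -2.46.

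Integrins and adhesion molecules had 7 of 27 at least 1 higher, 1 at least 1 lower and a median of 0.76. Itgb7 was at -0.63 in CNT-1 and 2.58 in CNT-2, a difference of 3.21. Itga5, the fibronectin receptor, differed by 1.32 ± 0.17 (probe SD, 3 probes), and Cd44, which binds hyaluronan, by 1.30 ± 0.41 (probe SD, 2 probes), while Icam2 was at -1.04. Actin cytoskeleton genes had 5 of 33 at least 1 higher, none at least 1 lower, 30 above 0 and a median of 0.45. Besides Xirp1 and Eps8 the higher genes were Tln1, which ties integrins to actin, at 1.72, the crosslinkers Flnc at 1.63, on a background-like probe that was below baseline in both columns, and Actn4 at 1.40.

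Matrix and protease genes had 8 of 33 at least 1 higher and 3 at least 1 lower, with a median of 0.21. Spp1, which encodes osteopontin, was at 0.55 in CNT-1 and 4.21 in CNT-2, a difference of 3.66. The elastase Mmp12 was at 0.55 and 3.83, a difference of 3.28, Mmp3 at 0.53 and 3.63, a difference of 3.101, and the gelatinase Mmp9 at -0.60 and 2.02, a difference of 2.62. Mmp7 went the other way, at 0.26 and -1.96, a difference of -2.22, as did the matrix protein Sparc, at 0.12 and -2.28, a difference of -2.41, and the clotting factor F10, at -1.24. Metalloproteinases were thus found among both the highest and the lowest genes.

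Markers of alveolar macrophages and of other cells were read in the same way, which does not check the cell type. Of 17 alveolar macrophage markers, 4 were at least 1 higher and 2 at least 1 lower. Their median of 0.39 lay above that of all genes as deposited and at -0.080 relative to it with quantile normalization. Marco, a scavenger receptor, differed by -0.06 and lysozyme, Lyz2, by -0.003, while Siglec1 differed by 0.42 and Pparg, the factor of macrophage identity, by -0.81. Csf1r, the receptor for the growth factor of macrophages, differed by -0.57 ± 0.82 (probe SD, 2 probes), from probes at -1.15 and 0.017. The members past 1 were Fabp4, Siglec5 at 1.59, Bhlhe41 at 1.43, Fabp5, Cidec, a lipid droplet protein, at -1.82, and Mrc1. The list of macrophage transcription factors, which also holds the carbonic anhydrase Car4, had 3 of 21 at least 1 higher and 2 at least 1 lower. Its median of 0.35 lay above that of all genes as deposited and at -0.12 relative to it with quantile normalization. Spi1, which encodes PU.1, differed by 0.35, Ets2 by 1.01 ± 0.29 (probe SD, 2 probes), Runx1 by -1.10 and Batf3 by -1.82.

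For lung and blood cells of other kinds, 4 of 43 markers were at least 1 higher and 3 at least 1 lower, with a median of 0.27. Pf4, of platelets, was at 0.51 in CNT-1 and 2.70 in CNT-2, a difference of 2.19. Ppbp, also of platelets, differed by 0.61. Dcn, of fibroblasts, was at 0.99 and 2.57, a difference of 1.58, or -0.017 with quantile normalization. Other fibroblast genes of the list were below 1, with Col1a1 at 0.20 ± 0.18 (probe SD, 3 probes), Col1a2 at 0.09 ± 0.37 (probe SD, 2 probes), Col3a1 at 0.53 and Pdgfra at 0.27. Epcam, of epithelium, was at 1.56 and -0.36, a difference of -1.92. Other epithelial genes of the list were above 0 and below 1, with the surfactant genes Sftpb at 0.998 ± 0.15 (probe SD, 2 probes), Sftpa1 at 0.90, Sftpd at 0.64 and Sftpc at 0.15 ± 0.08 (probe SD, 2 probes), the ciliary factor Foxj1 at 0.84, Aqp5 at 0.22, Cdh1 at 0.15, Scgb1a1 at 0.13 and Krt5 at 0.045. The endothelial gene Vwf had a mean of -1.22 ± 2.82 (probe SD, 2 probes), from probes at 0.77 and -3.22. Other endothelial genes were below 1 in size, with Pecam1 at -0.13, Cdh5 at -0.39, Tek at 0.21 ± 0.31 (probe SD, 2 probes) and Kdr at 0.64. Cd79a and Cd79b, both of B cells, were at -1.19 and 1.40, and Ms4a1, also of B cells, at 0.72. S100a8, of neutrophils, was at 1.11 ± 0.90 (probe SD, 3 probes, 2 of them background-like), from probes at 1.86, 1.36 and 0.12. The other neutrophil genes were below 1 in size, with Mpo at -0.55, Elane at 0.44, S100a9 at 0.57 and Camp at 0.64 ± 0.06 (probe SD, 2 probes). Markers of 1 cell type such as Cd79a and Cd79b lay on opposite sides.

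Genes of basic cell functions showed little spread, and the ribosomal lists had medians below the all-gene median of 0.15. Of 55 cytosolic ribosomal proteins none was at least 1 higher and 1, Rpl34, was at the threshold of -1. Their median was -0.03, with 34 below 0 and 50 below the all-gene median. Mitochondrial ribosomal proteins had none of 40 past 1 and a median of -0.18, with 35 below 0 and 39 below the all-gene median. Ribosome biogenesis genes had none of 33 past 1 and a median of -0.20, with 25 below 0 and 29 below the all-gene median. None of the 13 reference genes was past 1, and their median of 0.18 was close to that of all genes. They ran from Gusb at -0.35 to Pgk1, a glycolytic enzyme, at 0.84, with Actb at 0.22 ± 0.03 and Gapdh at 0.64 ± 0.10 (probe SD, 2 probes each).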

How the data were processed

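The samples were total RNA of NR8383 cultures, run on 1-colour Agilent arrays with Cy3 label, per the labels' protocols. The submitters' processing notes name Agilent Feature Extraction 10.7.3.1. The deposited table holds 3 columns, control, CNT-1 and CNT-2, of values presumed to be log2, as the authors deposited them; scale, centring and direction are read from the values (-5.71 to 8.82, both signs, column medians of 0.014, -0.045 and 0.064), since the sources used here give neither normalization nor baseline. Higher values were read as more RNA. The number of arrays limits the precision.

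Differences were taken per probe and averaged over the probes of a symbol with Python 3.11.15 and pandas 2.3.3, with no filter, no rescaling and, at 1 column per side, no test. Probes had 1 symbol (20932) or none (20171, of which 91 were control or quality probes), and 0 had several. Names came through RefSeq accessions of the GRCr8 table (17415 probes), a current symbol (3113) or an older one updated (396), and 8 were unmatched. Promoters are RefSeq's on GRCr8, the first entry per symbol.

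Genes to name were taken from the 15 highest and 15 lowest genes; the 10 highest and 10 lowest with every probe past 1; up to 6 members of a list past 1, and up to 3 against its median; genes whose probes disagree; and reference, marker and transcription factor genes. Many of the last group are given only in the counts of their lists, and not every gene of the other groups is reported here. The members and the lists were chosen with earlier results of these data known. The differencing and scaling steps were tested on simulated data. Alternatives were the scaling, the summary over probes, background-like probes, the threshold of 1.5 and the mean of a list, and, added after seeing the data, the platform's own symbols and probes within 0.1 of 0 in the control.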

Additional observations from a re-analysis of the deposited data

Results flagged for a closer look

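Probes without a gene symbol carried differences that no comparison by gene uses. Of 20080 such probes, 1371 (6.83%) were at least 1 log2 unit higher in CNT-2 and 1186 (5.91%) at least 1 lower, with a median of 0.11 and values from -4.69 to 7.43. At least 3 higher were 90 of them. They were singled out because they lie outside the gene-based comparison and show differences of the same size; among probes with a symbol, 9.29% were at least 1 higher and 4.86% at least 1 lower. Without a symbol here, they were not assigned to any gene list.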

How the results depend on the processing

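Each column is 1 value without replicates, so no spread between cultures is known and leaving out a replicate could not be run. No paired analysis was possible because each group had 1 column. Differences near background, and the level behind any value, cannot be judged from centred values.

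Over all genes the higher count was 768 with centring on the 75th percentile, 815 with quantile normalization, 915 with spike-in centring, 253 among genes with 2 or more probes and 649 at 1.5; the lower count was 1563, 1245 with spike-in centring, 135 with 2 or more probes and 243 at 1.5.

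Counts within lists moved as follows. Higher sterol enzymes numbered 5 (median centring), 1 (75th percentile), 0 (quantile), 3 (spike-in), 2 (2 or more probes) and 0 (at 1.5). Higher ATF4-CHOP genes numbered 8 (75th percentile), 6 (quantile), 8 (spike-in), 2 (2 or more probes) and 8 (at 1.5). Higher glycolysis genes numbered 5 (quantile), 2 (2 or more probes) and 10 (at 1.5), and higher NF-kappaB genes 3 (quantile) and 0 of 6 (2 or more probes). With 2 or more probes there were 4 higher cytokine genes, 3 higher immediate early genes, 13 lower mitosis genes and 8 lower replication genes. At 1.5 both mitosis and replication had 9 lower genes. Fewer genes are measured by 2 or more probes, which lowers those counts by construction.

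Each of the 49 list medians was set against all genes. A change of side was counted only where list and all-gene median lay at least 0.168 apart as deposited. By this count none changed side under centring on the median, the 75th percentile or the spike-in probes, or without background-like probes. Under quantile normalization 8 did: sterol synthesis (-1.55), sterol regulators (-0.12), iron (-0.054), proton pump (-0.092), MHC class II (0.056), purinergic (0.10), macrophage transcription factors (-0.12) and alveolar macrophage markers (-0.080). Among genes with 2 or more probes 6 did: interferon-stimulated (0.15), inflammasome (0.16), MHC class II (0.25), purinergic (1.01), aryl hydrocarbon receptor (-0.16) and alveolar macrophage markers (-0.70). The other changes counted were MHC class II with the median over probes (0.027) and purinergic with the probe of smallest difference (0.21). With the mean of members, heat shock (0.10) and macrophage transcription factors (-0.018) changed side. With probes near 0 in the control, purinergic (0.037) and macrophage transcription factors (-0.048) did. Lists nearer to the all-gene median were not counted, and some changed side as well. The complement median was 0.066 against 0.151 for all genes as deposited, and 0.13 against -0.0015 with quantile normalization.

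Of the 254 named genes past 1, 237 stayed past it in the same direction with median centring, 208 with the 75th percentile, 223 with spike-in centring and 140 with quantile normalization. The last reversed 16: Lss (-1.08), Sc5d (-2.12), Idi1 (-1.86), Msmo1 (-1.80), Mvd (-1.28), Cyp51 (-1.41), Insig1 (-1.91), Stard4 (-0.14), Acss2 (-1.49), Angptl4 (0.058), Fabp5 (-0.54), Osm (-0.32), Alox5ap (0.074), Ddb2 (-0.17), Atp6v0d2 (-0.36) and Dcn (-0.017). The probe of smallest difference reversed Vwf (0.77). Except where the alternative holds fewer genes or probes, the cause was not tested.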

Other observations

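Gene families formed from the letters of the symbol, 120 of them with at least 15 measured genes, gave a view that does not rest on the chosen lists. The lowest medians were those of histone genes with the symbol H (-0.52, 21 genes, 3 at least 1 lower and 3 at least 1 higher, from H1f5, a linker histone, at -1.94 to H1f6, the testis form, at 2.26) and of the Rad genes of DNA repair (-0.52, 17 genes, 4 at least 1 lower). Centrosome genes of the Cep family followed, at -0.33 with 5 of 31 at least 1 lower, among them Cep55, a protein of the last step of cell division, at -1.61. Nucleoporins, which build the nuclear pore, were at -0.32 with 3 of 23 at least 1 lower, led by Nup107 at -1.18. The Nudt hydrolases were at -0.253 with 13 of 18 below the all-gene median, and mitochondrial ribosomal proteins of the small subunit at -0.25 with 24 of 25 below the all-gene median. All of these families stayed below 0 under each scaling.

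Highest were the Bcl family at 0.52 (19 genes, 3 at least 1 higher, led by Bcl3 at 1.63), the synaptotagmins at 0.46 (16 genes) and the Sec genes of protein secretion at 0.45, of which 25 of 25 lay above 0, from Sec16a at 0.04 to Sec14l1 at 1.19. Receptors of the tumour necrosis factor family had a median of 0.44 (17 genes), Krüppel-like factors 0.41 (15 genes) and matrix metalloproteinases 0.37 (22 genes, from Mmp28 at -3.13 to Mmp10 at 7.79). Prolactin-family genes of placenta had 4 of 21 at least 1 higher and none at least 1 lower, with Prl8a9 at 5.44. The largest family, the olfactory receptors with the symbol Or, had 116 of 1039 at least 1 higher and 21 at least 1 lower. Its median was 0.23, and the shares over all genes were 9.32% and 4.65%. Whether the cells express these receptors cannot be read from centred values. The metalloproteinase median was -0.016 with centring on the 75th percentile, whereas the Sec median was 0.07 there. Across families of receptors for immune cells, the Cd genes had 15 of 71 at least 1 higher and 7 at least 1 lower, from Cd80 at -1.67 to the activation marker Cd69 at 4.79.

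Outside any list, the highest genes past those named above included the signalling brake Rgs1 at 4.77 and the synaptic gene Arc at 4.81, and the lowest included Rps26, a ribosomal protein gene with 1 probe here, at -2.52, below all 55 listed cytosolic ribosomal protein genes. These were chosen after their values were seen.

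Control or quality probes of the DCP series numbered 0 to 5 had a mean difference of 0.213 ± 0.071 (SD over 11 probes), and those numbered 6 and above -0.134 ± 0.290 (SD over 7 probes, from -0.472 to 0.247).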
